A study of Mus musculus with 72 samples.

Results

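Coenzyme A (CoA) synthesis and the vanins were followed as 9 genes out of the 55573 in the count table, taken by the Ensembl identifiers that map to Pank1, Pank2, Pank3, Pank4, Ppcs, Ppcdc, Coasy, Vnn1 and Vnn3. All 9 had 1 row each and passed the filter on low counts in every comparison. The genes were chosen by pathway, and they were proposed with the genotype, microbiota and interaction effects of these same libraries in view, so those effects are given as a description and support nothing by themselves.

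CoA carries acyl groups in fatty acid oxidation, in lipid synthesis and in the tricarboxylic acid cycle, and the liver is rich in it. Pantothenate (vitamin B5) is phosphorylated by the pantothenate kinases, the step at which the pathway is controlled by feedback from CoA and acyl-CoA. PPCS then joins cysteine to the product, PPCDC removes a carboxyl group, and the bifunctional enzyme COASY carries out both last steps. Vanins work on the breakdown side, as pantetheinases that split pantetheine, a breakdown product of CoA, into pantothenate and cysteamine. Vnn1 and Pank1 are both known targets of the lipid-activated nuclear receptor PPARα in liver.

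Livers came from 72 male mice, labelled C57BL/6 and on a C57BL/6J background per the study's methods, 18 in each of 4 groups. WT mice were Bmal1 fl/fl, with the circadian activator gene Bmal1 flanked by loxP sites and intact. LKO mice were Bmal1 fl/fl Alb-Cre, in which Cre driven by the Albumin promoter removes Bmal1 in the liver. Both genotypes were kept either specific pathogen free (SPF), with a gut microbiota, or germ free (GF) in isolators, so loxP-flanked Bmal1 was shared by all 4 groups. Mice were 10 to 14 weeks old when single housing began, some weeks before death, and were fed autoclaved chow at will under a cycle of 12 h light and 12 h dark. Livers were taken at zeitgeber times (ZT, the hours since the lights came on) ZT2, ZT6, ZT10, ZT14, ZT18 and ZT22, 3 mice per group and ZT, and each mouse gave 1 library. Genotype effects compare LKO with WT mice, microbiota effects compare GF with SPF mice, and the interaction is the genotype effect in GF mice minus that in SPF mice.

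Libraries held 17369927 to 22076113 counts (median 19106726). Levels are given as CPM, counts scaled to library size, with TMM factors over all 72 libraries. Of the hepatocyte markers Alb was at 24877 CPM or more in every library, and the pancreatic, lymphocyte and neutrophil markers summed to at most 1.76, 6.50 and 20.8 CPM. In 4 libraries expression went against the label. Npas2, which is high without Bmal1, was at 0.219 CPM in the library labelled as replicate 2 of SPF LKO at ZT14 and at 1.82 CPM in that labelled as replicate 1 of SPF LKO at ZT18, while it stood at 14.4 to 44.5 CPM in the other LKO libraries. Bmal1 itself, listed as Arntl, was at 2.12 CPM in the library labelled as replicate 3 of SPF WT at ZT14, against 15.8 and 19.5 CPM in the other two of that time, and at 8.21 CPM in that labelled as replicate 3 of GF WT at ZT6, against 1.62 and 2.43 CPM. Other libraries also stood apart from those of their group and time. Replicate 2 of SPF WT at ZT2 held 27.9 CPM of Arntl, against 11 and 15.5 CPM. Replicate 3 of SPF WT at ZT18 held 0.107 CPM of Npas2, against 2.27 and 2.75 CPM. They were not set aside, so the 4 are not a full list of such libraries. Per-gene counts do not separate the deleted part of Arntl, so its level does not check the genotype. The 4 libraries, called doubted below, were kept. Values without them are given for many, not all, of the results that they moved by over 1.5 times or changed in call or direction.

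Promoters are shown first because Bmal1 acts on promoters through E-boxes. RefSeq windows on GRCm38.p6 were found for 7 of the 9 genes. Vnn1 and Coasy had no window, so their promoters were not searched. The 250 bases before the start are printed 5′ to 3′ on the gene's strand for 4 genes. These are Pank1, Pank3 and Vnn3, whose genotype effects are described below, and Ppcs, the gene with a motif match. Capitals mark matches to CACGTG (the canonical E-box), AGGTCA (the half-site of nuclear receptors such as PPARα and REV-ERBα) or TTATGTAA (the D-box), searched on both strands.
Pank1, chr19:34879456-34879705, minus strand: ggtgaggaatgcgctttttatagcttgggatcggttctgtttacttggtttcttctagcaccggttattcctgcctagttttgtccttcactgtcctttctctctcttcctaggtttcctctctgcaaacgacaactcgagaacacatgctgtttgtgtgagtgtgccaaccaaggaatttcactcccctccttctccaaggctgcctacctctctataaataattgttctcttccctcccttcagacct
Pank3, chr11:35769245-35769494, plus strand: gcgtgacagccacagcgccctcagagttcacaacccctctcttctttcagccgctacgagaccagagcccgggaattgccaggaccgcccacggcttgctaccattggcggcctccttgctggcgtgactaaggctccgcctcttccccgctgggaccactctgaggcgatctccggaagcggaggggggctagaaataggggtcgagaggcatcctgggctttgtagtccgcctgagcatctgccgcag
Ppcs, chr4:119422421-119422670, minus strand: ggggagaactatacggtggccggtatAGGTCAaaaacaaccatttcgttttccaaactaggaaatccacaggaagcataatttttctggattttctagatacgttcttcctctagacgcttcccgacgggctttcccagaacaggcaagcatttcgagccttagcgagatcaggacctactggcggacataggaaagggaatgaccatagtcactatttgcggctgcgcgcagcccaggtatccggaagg
Vnn3, chr10:23851212-23851461, plus strand: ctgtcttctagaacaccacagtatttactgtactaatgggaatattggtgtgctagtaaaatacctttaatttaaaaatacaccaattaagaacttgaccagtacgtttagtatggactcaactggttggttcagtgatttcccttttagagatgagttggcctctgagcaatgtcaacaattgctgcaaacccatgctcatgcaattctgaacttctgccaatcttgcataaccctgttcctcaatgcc
Of the 10 windows of the 7 genes, 1 held a match, the AGGTCA that begins 224 bases before the start of Ppcs. Among all 32851 windows of this length, 6.02% held CACGTG, 14% held AGGTCA and 0.819% held TTATGTAA. An absent match says only that these letters were not in that window. The windows of Pank1, Ppcs and Vnn3 end at the annotated gene start, and the RefSeq start of Pank3 lies 11 bases inside the annotated gene. A further Pank1 window, whose start lies 1538 bases inside the gene, held no match either.

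On the scale of CPM per kb of exon, the only scale on which genes are compared here, Coasy stood highest with 45.7 ± 4.69 (mean ± SD, n = 72 mice). Pank1 (34.4 ± 6.87) and Vnn3 (33.9 ± 7.24) followed and did not differ beyond their spread, then Vnn1 (22.9 ± 12.2), Pank3 (15.5 ± 2.79), Ppcs (9.45 ± 1.46) and Pank2 (5.01 ± 0.345). Vnn1 had the widest spread, which reached both neighbours in this order. Pank4 (2.57 ± 0.240) and Ppcdc (2.32 ± 0.296) stood lowest, with a difference smaller than the SD of Ppcdc. Pank1 was the most abundant pantothenate kinase transcript of the liver in every group, with group means of 28.8 to 41.2 CPM per kb against 14 to 17.5 CPM per kb for Pank3.

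**Figure D1:**
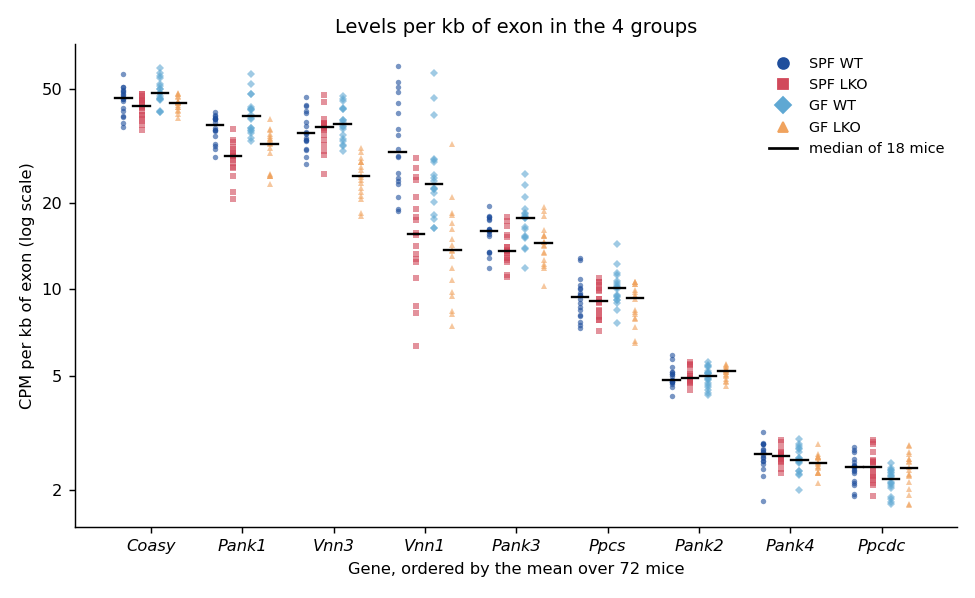
Level of the 9 genes in CPM per kb of exon, on a log axis, for each of the 72 mice (points, by group) with the median of 18 mice as a bar. Coasy, Pank1 and Vnn3 lie highest, Vnn1 spreads most widely, and the Vnn3 points of GF LKO mice lie lowest of the groups as a whole, with some overlap.

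The genes also differed in how much mice of the same group and ZT varied. Between the 3 mice of a group the coefficient of variation of CPM had a median of 5.22% for Pank2 and 24.0% for Vnn1 over the 24 groups, with 7.5% for Pank1 and 12.5% for Vnn3. Group means of Vnn1 ran from 22.6 CPM (GF LKO ZT22) to 120 CPM (SPF WT ZT2), a 5.31-fold span, whereas those of Pank2 spanned 1.22-fold. Pank1 spanned 2.01-fold, from 202 CPM in GF LKO ZT18 to 407 CPM in GF WT ZT10.

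**Figure D2:**
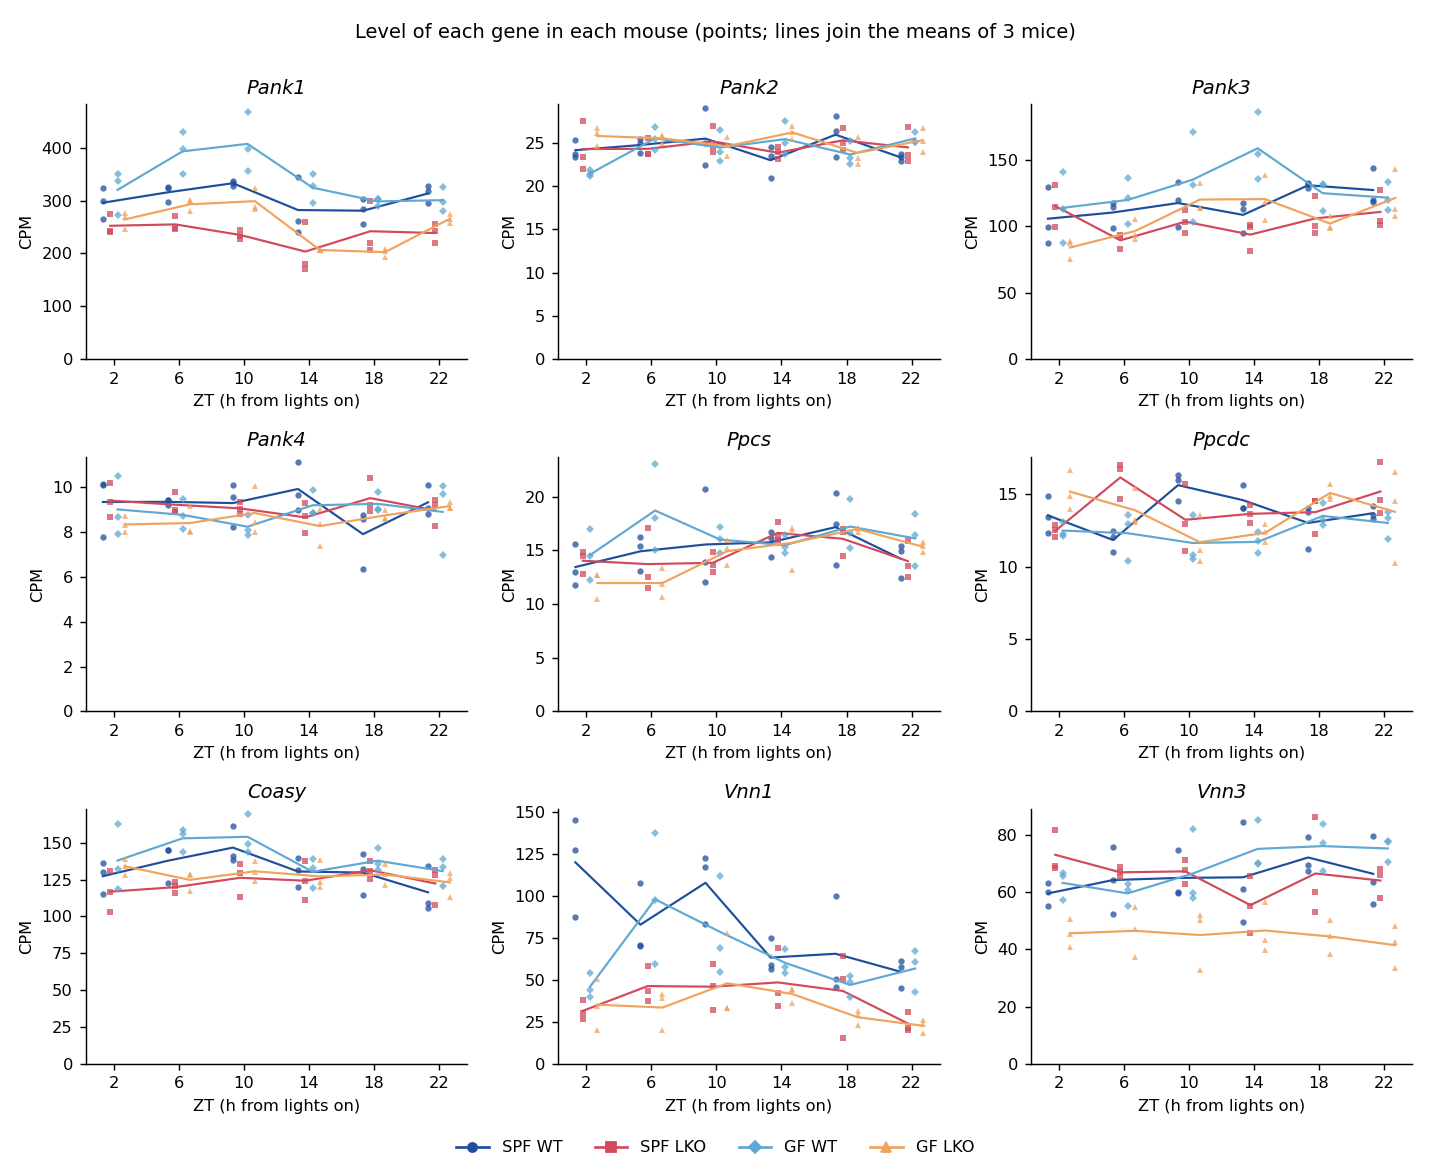
CPM of each gene (vertical axis, from 0) in each mouse (points) against ZT in hours, with lines through the means of 3 mice for the 4 groups. Pank1 and Vnn1 of both LKO groups lie mostly below WT, Vnn3 of GF LKO mice lies below the other groups at each ZT, and Pank2 and Pank4 run close together in all groups.

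Among the pantothenate kinases, Pank1 and Pank3 were lower in LKO livers in both microbial states while Pank2 and Pank4 stayed close to WT. Pank1 (ENSMUSG00000033610, chromosome 19, 34806940 to 34879455, minus strand), whose product is the main pantothenate kinase of liver, had a lowest, median and highest value of 240, 310 and 345 CPM in SPF WT mice and of 171, 242 and 300 CPM in SPF LKO mice. In GF mice the values were 273, 332 and 467 CPM for WT and 193, 267 and 324 CPM for LKO. The ranges of the genotypes overlapped in both microbial states, but the LKO medians (242 and 267 CPM) lay close to the lowest WT values (240 and 273 CPM), and the highest SPF LKO value was that of the library labelled as replicate 1 of SPF LKO at ZT18. The log2 fold change of Pank1 was −0.35 ± 0.06 (SE) in SPF mice, a decrease to 0.786 of WT, and −0.41 ± 0.07 in GF mice, to 0.750 of WT. Without the 4 doubted libraries the values were −0.37 and −0.41.

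By ZT, Pank1 was lower in LKO mice at 6 of 6 ZT in SPF and in GF mice. In SPF mice the difference was deepest at ZT10 (−0.50 ± 0.11 on the log2 scale), where the 3 WT livers held 328, 337 and 334 CPM and the 3 LKO livers 243, 228 and 234 CPM. In GF mice it was deepest at ZT14 (−0.65 ± 0.17), where WT livers held 351, 295 and 327 CPM and LKO livers 206, 207 and 206 CPM, and shallowest at ZT22 (−0.18 ± 0.10). At these 2 deepest times the genotypes did not overlap. At ZT14 in SPF mice the value was −0.47 ± 0.17 with all libraries and −0.50 without both doubted libraries of that time, with −0.67 when the doubted LKO library alone and −0.30 when the doubted WT library alone was left out, and at ZT18 it was −0.22 ± 0.12 and −0.39 without the library labelled as replicate 1 of SPF LKO at ZT18. Germ-free status went with somewhat more Pank1 around ZT6 and ZT10, by 0.33 ± 0.10 and 0.29 ± 0.11 in WT mice and by 0.21 ± 0.10 and 0.35 ± 0.11 in LKO mice, and with less at ZT18 in LKO mice (−0.25 ± 0.12), although that value was −0.08 without the library labelled as replicate 1 of SPF LKO at that time.

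Pank3 (chromosome 11, 35769484 to 35791285, plus strand), a cytosolic kinase of the same family, had a lowest, median and highest value of 87.5, 118 and 144 CPM in SPF WT mice, 81.5, 101 and 132 CPM in SPF LKO mice, 87.7, 131 and 186 CPM in GF WT mice and 75.6, 107 and 143 CPM in GF LKO mice. All 4 ranges overlapped widely. Its genotype effect was −0.17 ± 0.06 in SPF mice and −0.26 ± 0.08 in GF mice on the log2 scale, lower at 5 of 6 and at 6 of 6 ZT. The exception was ZT2 in SPF mice (0.13). At that time GF LKO livers held 87.5, 89.0 and 75.6 CPM and SPF LKO livers 99.9, 115 and 132 CPM, with no overlap. The highest group mean of Pank3 was 159 CPM in GF WT mice at ZT14.

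Pank2, whose human counterpart is mutated in a neurodegeneration with brain iron accumulation, had medians of 23.8 CPM (WT) and 24 CPM (LKO) in SPF mice and of 24.6 CPM (WT) and 25.5 CPM (LKO) in GF mice. Its genotype effects were 0.01 ± 0.04 and 0.05 ± 0.04, with intervals of −0.06 to 0.09 and −0.02 to 0.13. Of the exon bases of Pank2, 22.9% are shared with Rnf24 on the other strand and some of these also with Gm14233, and reads there were left out of the counts, so its level is uncertain. Pank4, which lacks pantothenate kinase activity, had medians of 8.63 to 9.31 CPM in the 4 groups and genotype effects of 0.00 ± 0.05 and −0.04 ± 0.05.

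The enzymes after the kinases differed little between groups. Ppcs, the synthetase that adds cysteine, had medians of 15.1 CPM (WT) and 14.7 CPM (LKO) in SPF mice and of 16.2 CPM (WT) and 15 CPM (LKO) in GF mice, and genotype effects of −0.04 ± 0.07 in SPF and −0.17 ± 0.07 in GF mice. Its widest gap was at ZT6 in GF mice (−0.65), where WT livers held 18, 15.1 and 23.1 CPM and LKO livers 11.8, 13.4 and 10.6 CPM. The 23.1 CPM belonged to the library labelled as replicate 3 of GF WT at ZT6, and without it the difference was −0.47. Ppcdc, the decarboxylase, had medians of 13.9 and 14 CPM (SPF, WT and LKO) and of 12.6 and 13.8 CPM (GF, WT and LKO), a genotype effect of 0.04 ± 0.06 in SPF and 0.14 ± 0.06 in GF mice, and a microbiota effect of −0.15 ± 0.05 in WT mice. At ZT6 in SPF mice Ppcdc was higher in LKO mice (17, 16.8 and 14.7 CPM against 12, 11 and 12.5 CPM), and at ZT10 in WT mice it was lower in GF mice (13.6, 10.8 and 10.6 CPM against 16, 16.4 and 14.6 CPM), with no overlap at either time. Coasy, the last enzyme of the pathway, had medians of 133 and 125 CPM (SPF, WT and LKO) and of 139 and 129 CPM (GF, WT and LKO), and genotype effects of −0.09 ± 0.05 and −0.13 ± 0.04, the latter lower at 6 of 6 ZT.

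The vanins differed more, and in unlike ways. Vnn1 and Vnn3 lie side by side on chromosome 10 on the plus strand, Vnn3 from 23851462 to 23869843 and Vnn1 from 23894688 to 23905343, with 24844 bases and no annotated gene between them. Vnn1 encodes the membrane-anchored pantetheinase of hepatocytes. Its lowest, median and highest values were 45.3, 72.8 and 145 CPM in SPF WT mice, 15.4, 37.7 and 69.2 CPM in SPF LKO mice, 39.6, 56.3 and 137 CPM in GF WT mice and 18.1, 33.1 and 77.8 CPM in GF LKO mice. LKO medians lay below the lowest WT value in both microbial states, although the ranges overlapped. The highest SPF LKO value was that of the library labelled as replicate 2 of SPF LKO at ZT14 and the highest GF WT value that of the library labelled as replicate 3 of GF WT at ZT6.

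The genotype effect on Vnn1 was −1.04 ± 0.18 in SPF mice, to 0.486 of WT, and −0.89 ± 0.17 in GF mice, to 0.540 of WT, and without the 4 doubted libraries −1.19 ± 0.18 and −0.79 ± 0.16. It was below 0 at 6 of 6 ZT in both. The depth of the decrease differed by time. In SPF mice it was deepest at ZT2 (−1.92 ± 0.28), where WT livers held 145, 87.6 and 127 CPM and LKO livers 26.4, 30.1 and 38.1 CPM. In GF mice it was −0.40 ± 0.27 at ZT2, or −0.75 to −0.12 with single libraries left out, where WT livers held 44, 39.6 and 54.2 CPM and LKO livers 50.7, 34.7 and 20.3 CPM, and deepest at ZT6 (−1.55 ± 0.32, or −1.23 without the library labelled as replicate 3 of GF WT at that time). The shallowest effect in SPF mice, at ZT14 (−0.38 ± 0.22), ran from −0.72 to −0.18 with single libraries left out and was −0.80 without both doubted libraries of that time. At ZT18 it was −0.60 ± 0.40, and −0.98 without the doubted LKO library. The ZT2 values of the WT groups did not overlap, and the microbiota effect in WT mice at that time was −1.38 ± 0.27. The clock gene Npas2 also differed between these WT livers. It was at 1.06, 6.93 and 1.58 CPM in SPF WT and at 7.69, 9.78 and 10.2 CPM in GF WT livers at ZT2. Whether the Vnn1 differences at ZT2 go with this clock difference was not tested. At ZT6 the microbiota effect on Vnn1 in WT mice was 0.25 ± 0.31 with all libraries and −0.07 without the doubted GF WT library. The interaction at ZT2 was 1.53 ± 0.38. With each of the 12 libraries of ZT2 left out in turn, the genotype effect in SPF mice lay between −2.11 and −1.76 and the microbiota effect in WT mice between −1.56 and −1.21. Pooled over ZT, the interaction for Vnn1 was 0.15 ± 0.25 (interval −0.34 to 0.64), and 0.40 ± 0.24 without the 4 libraries.

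With ZT pooled, Vnn3, the neighbouring gene of the same family, was lower in livers that lacked both Bmal1 and microbes. It was near the SPF WT level where either was present, though less so at ZT14 and ZT18 without the doubted libraries (given below). Its lowest, median and highest values were 49.7, 63.4 and 84.7 CPM in SPF WT mice, 45.8, 66.6 and 86.4 CPM in SPF LKO mice, 55.2, 68.6 and 85.4 CPM in GF WT mice and 32.8, 45.1 and 56.6 CPM in GF LKO mice. The GF LKO and GF WT ranges overlapped in 1 library each, namely GF LKO ZT14 replicate 1 at 56.6 CPM and GF WT ZT6 replicate 2 at 55.2 CPM. The genotype effect was 0.01 ± 0.07 in SPF mice (interval −0.13 to 0.14) and −0.62 ± 0.07 in GF mice, and the microbiota effect was 0.07 ± 0.07 in WT mice and −0.55 ± 0.07 in LKO mice. Over the alternative fits the genotype effect in SPF mice ran from −0.04 to 0.03, on both sides of 0. The interaction was −0.64 ± 0.10 on the log2 scale, and −0.60 without the 4 doubted libraries.

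In GF mice the Vnn3 difference had the same sign at every time sampled. It was −0.48 ± 0.11, −0.36 ± 0.15, −0.56 ± 0.17, −0.69 ± 0.20, −0.75 ± 0.16 and −0.87 ± 0.15 in the order of the 6 ZT from ZT2 to ZT22. In SPF mice it ran from −0.23 ± 0.20 (ZT14) to 0.30 ± 0.11 (ZT2), above 0 at 3 of 6 ZT. The interaction was below 0 at 6 of 6 ZT, from −0.82 ± 0.21 at ZT22 to −0.42 ± 0.21 at ZT6. The doubted libraries moved these values at 2 times. Without both of them at ZT14 the effect in SPF mice was −0.52 ± 0.19 and the interaction went from −0.46 ± 0.28 to −0.16 ± 0.25. Without the doubted LKO library at ZT18 the effect in SPF mice went from −0.12 to −0.34 ± 0.13 and the interaction from −0.63 ± 0.23 to −0.41 ± 0.18. At ZT22, GF LKO livers held 48.3, 33.4 and 42.6 CPM, GF WT livers 77.4, 77.9 and 70.6 CPM, SPF LKO livers 66.2, 68.2 and 57.9 CPM and SPF WT livers 63.6, 56 and 79.7 CPM. GF LKO livers lay below the other 3 groups there.

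**Figure D3:**
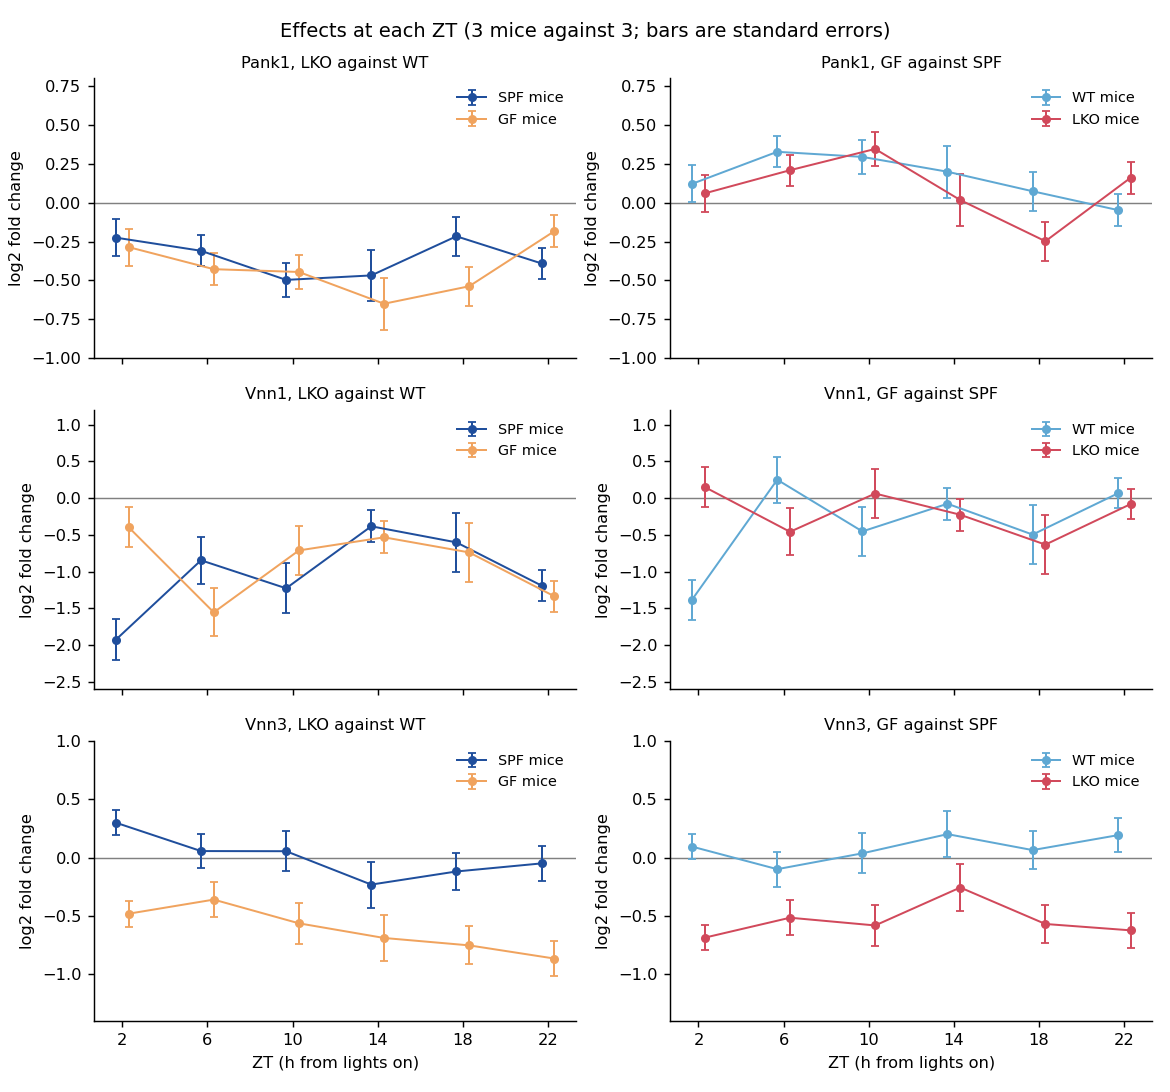
log2 fold changes of Pank1, Vnn1 and Vnn3 (vertical axes, each row on its own scale) at each ZT in hours, for LKO against WT (left) in SPF and GF mice and for GF against SPF (right) in WT and LKO mice, 3 mice against 3; bars are standard errors. Pank1 lies below 0 for LKO against WT at 6 of 6 ZT, Vnn1 is lowest at ZT2 in SPF mice (−1.92), and the GF line of Vnn3 lies below the SPF line, with all libraries included.

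Calls at an adjusted p under 0.05 by edgeR's quasi-likelihood test, with ZT pooled, are counted here beside the share of all genes called, and nothing is read from them since the same contrasts were in view when the genes were chosen. The genotype effect in SPF mice was called for 3 of the 9 genes (Pank1, Pank3 and Vnn1, all lower), with 23.1% of all genes called (11.6% higher and 11.5% lower). In GF mice it was called for 5 (Pank1, Pank3, Coasy, Vnn1 and Vnn3, all lower), with 30.8% of all genes called (15.6% higher and 15.2% lower). The microbiota effect was called for Ppcdc in WT mice, with 31.8% of all genes called (14.2% higher and 17.7% lower), and for Vnn3 in LKO mice, with 36.4% called (18.1% higher and 18.4% lower), both lower in GF mice. The interaction was called for Vnn3, with 0.438% of all genes called. The calls of Pank1, Vnn1 and Vnn3 were kept in each of 10 to 13 alternative fits per comparison. Those of Pank3 were kept in 7 of 12 (SPF) and 7 of 10 (GF), and the SPF call was lost without the library labelled as replicate 3 of SPF WT at ZT14 (−0.17). Those of Coasy were kept in 8 of 10 and of Ppcdc in 7 of 11. The microbiota effect in WT mice on Vnn1 (−0.37 ± 0.17) was called in 4 of 11 alternatives. Among them were the fits without the library labelled as replicate 3 of GF WT at ZT6 (−0.47) and without all the doubted libraries (−0.49). That on Pank1 (0.15 ± 0.06) was called in 6 of 11, among them without the library labelled as replicate 3 of SPF WT at ZT14 (0.17).

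**Figure D4:**
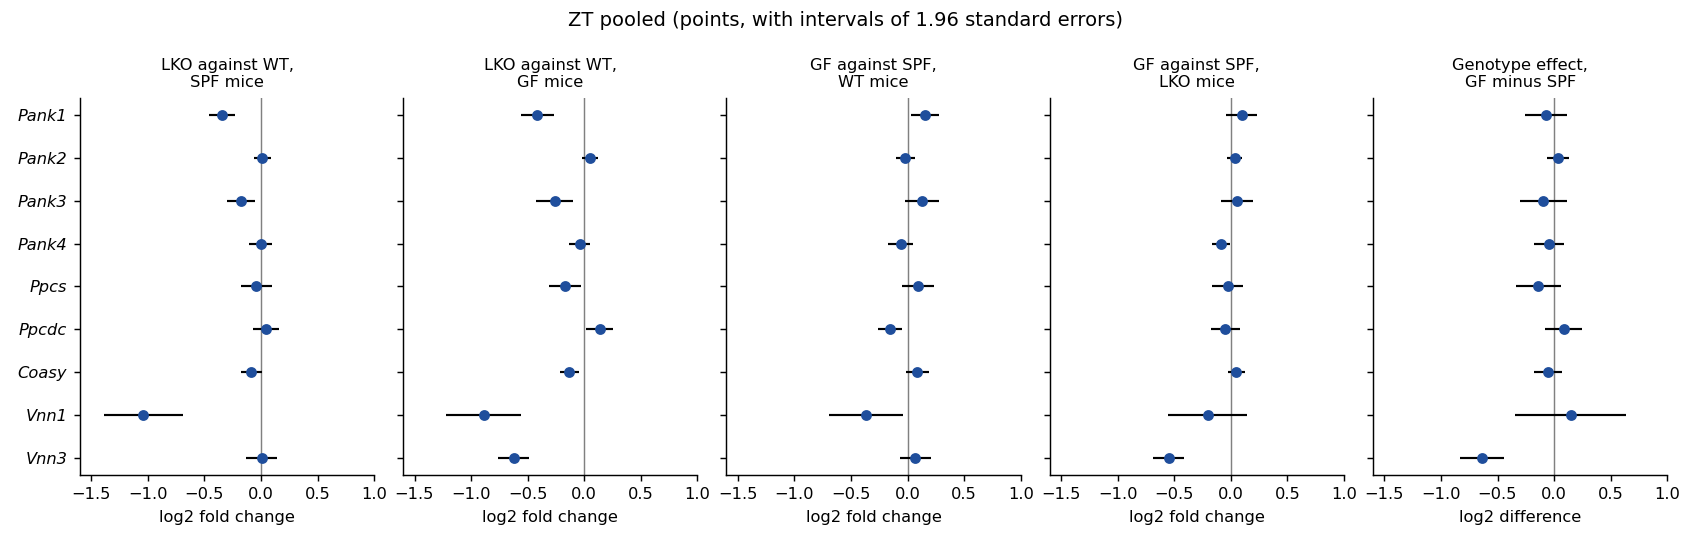
log2 fold change of the 9 genes (rows) with ZT pooled, for the genotype effect in SPF and GF mice, the microbiota effect in WT and LKO mice and the interaction (panels from left to right), with normal 95% intervals from 36 or, for the interaction, 72 libraries. Vnn1 lies near −1 in both genotype panels, Vnn3 lies away from 0 in GF mice, in LKO mice and in the interaction, and Pank2 and Pank4 lie within 0.1 of 0.

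Some markers of liver cell types differed between the groups. Of all genes, 11.5% (SPF) and 15.2% (GF) were called lower in LKO mice, and 11.6% and 15.6% higher. In GF against SPF mice 14.2% were called higher in WT mice and 18.1% in LKO mice, with 17.7% and 18.4% lower. The summed hepatocyte markers (Alb, Apoa1, Ttr, Cps1 and Cyp2e1, none at 0) had a median of 110000 CPM (84434 to 133860) in SPF WT mice and 61614 CPM (46808 to 129817) in SPF LKO mice. In GF mice it was 141038 CPM (116617 to 172303) for WT and 63494 CPM (55512 to 79913) for LKO. Without the doubted libraries the highest SPF LKO sum was 78904 CPM in place of 129817 CPM. Over all libraries the median of Alb was 64516 CPM, against 5296 to 10079 CPM for the other hepatocyte markers, so the sums mostly follow Alb. Without the doubted libraries the median log2 genotype effect of the 5 markers was −0.08 in SPF and −0.20 in GF mice. Of these 5 markers, 1 was called lower in LKO mice in SPF and 3 in GF mice, and 5 were called higher in GF than in SPF WT mice. In LKO mice, GF against SPF, 2 were called higher and 1 lower, or 3 and 0 without the doubted libraries. Kupffer cell markers were called lower for 4 of 6 in SPF LKO mice and 2 of 6 in GF LKO mice. Their sum (6 genes, none at 0) had a median of 249 CPM (176 to 467) in SPF WT, 209 CPM (169 to 272) in SPF LKO, 222 CPM (141 to 289) in GF WT and 187 CPM (106 to 250) in GF LKO mice. Without the doubted libraries 1 of 6 was called lower in GF LKO mice. Some markers of other cell types were called higher in LKO mice. Of 4 stellate cell markers 2 were called higher in SPF and 1 in GF mice, and of 4 cholangiocyte markers 1 in each. Without the doubted libraries the median log2 change of the cholangiocyte markers was −0.16 in SPF and 0.14 in GF mice. A single call in a list this short is not read as a shift. Endothelial markers gave 1 lower call in SPF and 1 higher in GF mice. In whole liver, fewer cells of a type and less RNA per cell cannot be told apart, and the part of these shifts in the results above was not tested.

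Rhythm over 24 h was tested within each group by a cosine fit on 18 libraries with edgeR's quasi-likelihood test and Benjamini-Hochberg adjustment. The choice of the genes did not name this measure, but effects by ZT in these same libraries were in view. The rhythm calls are therefore given as a description. In GF WT mice Pank1 (adjusted p = 0.00295), Vnn1 (0.0267) and Vnn3 (0.0292) were called, with 26.7% of all genes called. Pank1 and Vnn1 peaked together in the light phase, at ZT 8.19 and ZT 8.03, with peak-to-trough folds of 1.40 and 1.86, and Vnn3 peaked in the dark phase at ZT 17.6 with a fold of 1.3. Without replicate 1 none of the 3 was called in GF WT mice, and over all 10 alternatives the calls were kept in 9, 8 and 6. In GF LKO mice Pank1 (adjusted p = 0.000933), Ppcs (0.00162) and Vnn1 (0.0406) were called, with 35% of all genes called. Pank1 peaked at ZT 5.31 with a fold of 1.45, Ppcs at ZT 16.4 with a fold of 1.44 and Vnn1 at ZT 9.87 with a fold of 1.87, so Pank1 stood highest in the light phase and Ppcs in the dark phase. Over 8 alternatives these calls were kept in 8, 8 and 4.

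In SPF mice none of the 9 genes was called rhythmic with all libraries, while 15% of all genes were called in SPF WT mice and 21.2% in SPF LKO mice. Vnn1 came nearest, with an adjusted p of 0.0797 and a fold of 1.84 in SPF WT mice and 0.109 and 1.87 in SPF LKO mice, and at an unadjusted p under 0.05 Vnn1 and Coasy passed in SPF WT mice and Vnn1 in SPF LKO mice. By DESeq2's likelihood ratio test 1 gene (Vnn1, adjusted p = 0.0348) was called in SPF WT mice and 0 in SPF LKO mice. Without the library labelled as replicate 1 of SPF LKO at ZT18, edgeR called Vnn1 (adjusted p = 0.0458) and Vnn3 (0.0452) in SPF LKO mice, and without all the doubted libraries it called Pank1 (0.0124) and Vnn3 (0.0223). Over the alternatives the adjusted p of Vnn1 ran from 0.00479 to 0.577 in SPF WT mice and from 0.0261 to 0.444 in SPF LKO mice. Whether rhythms differed between groups was not tested.

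Genes that use, move or release CoA give the setting in which the 9 genes stood. Of all genes, 11.5% (SPF) and 15.2% (GF) were called lower in LKO mice, and 11.6% and 15.6% higher. Acyl-CoA thioesterases, which free CoA from acyl groups, were called lower in LKO mice for 5 of 10 in SPF and 7 of 10 in GF mice and higher for 0 and 1, with medians of −0.29 and −0.51 against −0.01 and 0.01 over all genes. Without the doubted libraries 7 were called lower in SPF mice as well, with a median of −0.37. The cytosolic Acot1 was at −0.93 ± 0.24 and −1.65 ± 0.21, and the peroxisomal Acot4 was at −1.13 ± 0.20 and −1.66 ± 0.16. Acot3, also peroxisomal, was at −5.12 ± 0.44 in GF mice, with 1.04 to 28.1 CPM in WT and at most 0.948 CPM (0 to 18 counts) in LKO mice. In SPF mice Acot3 was at −2.01 ± 0.57 with all libraries and at −4.43 ± 0.36 without the doubted ones, since the libraries labelled as LKO at ZT14 and ZT18 held 16.7 and 10.7 CPM and the other 16 LKO libraries at most 0.773 CPM. Acyl-CoA synthetases, which charge fatty acids with CoA, were called lower for 3 and 6 of 11 tested and higher for none, with medians of −0.11 and −0.22 (in SPF mice 6 called lower without the doubted libraries), among them Acsm5 (−0.35 ± 0.06 and −0.55 ± 0.06) and, in GF mice, Acsl1 (−0.60 ± 0.10), the main long-chain synthetase of liver. In GF against SPF mice 6 of these 11 were called higher and 1 lower in WT mice, and 5 and 2 in LKO mice. The shares of all genes were 14.2% higher and 17.7% lower in WT mice, and 18.1% and 18.4% in LKO mice. Without the doubted libraries 7 of these 11 were called higher in WT and 6 in LKO mice.

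Against the shares of all genes called lower (11.5% and 15.2%) and higher (11.6% and 15.6%) in LKO mice, other lists stood as follows. PPARα and its targets were called lower for 15 of 18 and higher for 1 of 18, in SPF and in GF mice alike. Their medians were −0.41 and −0.55, and without the doubted libraries 16 were called lower in SPF mice. They included the fatty acid hydroxylases Cyp4a10 (−1.55 ± 0.23 and −2.67 ± 0.24) and Cyp4a14 (−1.66 ± 0.32 and −2.63 ± 0.41), while Pdk4, a brake on pyruvate oxidation, was higher in SPF LKO mice (1.56 ± 0.31). In GF mice the mean of Pdk4 was also higher in LKO (28.1 ± 12.4 CPM, SD) than in WT mice (14.4 ± 9.87 CPM). Genes of CoA breakdown, transport and transfer showed, close to the shares of all genes, 1 higher and 1 lower call among 8 tested in either microbial state. These were Aasdhppt, which moves phosphopantetheine from CoA onto carrier proteins (0.45 ± 0.07 and 0.44 ± 0.06), and Slc5a6, the cell's importer of pantothenate and biotin (−0.63 ± 0.17 and −0.74 ± 0.22). Of the clock genes 4 were called higher and 6 lower of 17 in SPF mice and 5 and 6 of 16 in GF mice. Without the doubted libraries 4 were called higher and 5 lower of 16 tested in SPF mice.

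Across the 24 means of group and ZT, the pattern most like that of Pank1 among 11840 other genes with a mean of at least 1 CPM was that of Dsg1c (Pearson r = 0.90), then Nbr1 (0.90) and Pnpla8 (0.90). For Vnn1 it was 5031439G07Rik (0.91), then Eci2 (0.90), an enzyme of the oxidation of unsaturated fatty acids, and Epb41l4b (0.89). Vnn3 was most like Aplp2 (0.87), Tbkbp1 (0.84) and Tlr5 (0.84), Coasy like Ist1 (0.86), Pank3 like Hccs (0.82), Ppcdc like Gm15832 (0.83), Ppcs like Anks4b (0.80), Pank4 like Ctbp1 (0.67) and Pank2 like Fkbp9 (0.58). Within the 9 genes, Pank1 followed Coasy (r = 0.65) and Vnn1 (0.63), while Pank3 and Ppcdc ran against each other (−0.62). These points share libraries and scaling, and the values describe likeness only.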

How the data were processed

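Values deposited by the authors are counts of reads per gene in 72 liver libraries, without normalization. The authors aligned single-end 50 bp reads to mm10 with STAR 2.6.1b and counted exons of Ensembl release 97 with featureCounts 2.0.0, without strand (per the file headers). Reads that mapped to several places or genes were left out, so near-identical copies are undercounted and isoforms are not separated. Libraries were grouped by their labels, and no count column was left unused.

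Groups were compared with edgeR 4.0.16 in R 4.3.3 (TMM, filterByExpr, quasi-likelihood test, Benjamini-Hochberg adjustment at 0.05 over all genes tested). ZT-pooled effects used the 36 libraries of a pair of groups, the interaction all 72, single ZT their 12 libraries with 4 means, and rhythms a 24 h cosine on 18. Effects at single ZT are given without calls, since they were in view when the genes were chosen. SEs are the log2 fold change over the root of the test's F, and intervals are normal ones at 95%. A second count test used DESeq2 1.42.0, with the Wald test for comparisons of groups and the likelihood ratio test for rhythms. The edgeR tests and the likelihood ratio test were run on simulated data first. Named genes of a list are the called ones with the largest changes, up to 4 per comparison, and likeness used log2(mean CPM + 0.5). Alternatives covered the test, scaling, filter, ZT, replicate block, spread and left-out libraries. Leaving out both doubted ZT14 libraries, and the lists and markers without the doubted libraries, were added after seeing the data. The genes and lists were chosen with earlier results of these data known. Gene coordinates came from the GENCODE annotation of GRCm38, and promoter sequences from RefSeq on GRCm38.p6. Replicates are separate mice.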

Additional observations from a re-analysis of the deposited data

Results flagged for a closer look

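The genotype effect on Vnn3 differed between microbial states. The log2 difference of the effect in GF mice minus that in SPF mice was −0.64 ± 0.10 (SE) over all 72 libraries, with an effect of −0.62 in GF and 0.01 in SPF mice, and it was tested as the interaction term of edgeR's quasi-likelihood test. Over 13 alternatives, all with ZT pooled, it lay between −0.68 and −0.59, past the threshold in each. At ZT14 alone it was −0.16 ± 0.25 without both doubted libraries of that time. The genes were chosen with this effect in view, so the value is not independent support.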

How the results depend on the processing

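No called value changed sign in any alternative run. With DESeq2, RLE factors or the 4 doubted libraries left out, the genes called for the microbiota effect in WT mice numbered 2 in place of 1, with ZT as a covariate 3, and with the replicate block 2. No pairing of mice by replicate number was seen, though these values cannot show that the mice were unpaired. Of 18 same-numbered pairs per comparison 5, 2, 6 and 3 had a correlation over 0.1, the highest being 0.37. Their median correlations were 0.02, −0.02, 0.01 and −0.03, against −0.02, 0.01, −0.01 and 0.02 for pairs of other numbers. The block left 3, 5, 1 and 1 genes called for the genotype effects in SPF and GF mice, the microbiota effect in LKO mice and the interaction, and 2 and 3 called rhythmic in GF LKO and GF WT mice, with 0 in both SPF groups. Genes called rhythmic numbered 1 in SPF WT mice with DESeq2, with ZT as a factor or with no filter, 1 in SPF LKO mice with no filter, and 2 there without the 4 libraries. With replicates or doubted libraries left out in turn, counts ranged from 2 to 3 (genotype, SPF), 3 to 5 (genotype, GF), 0 to 2 (microbiota, WT), 1 to 1 (microbiota, LKO; interaction), and for rhythms from 0 to 1 (SPF WT), 0 to 2 (SPF LKO), 0 to 3 (GF WT) and 2 to 3 (GF LKO). The causes were not tested. Effects at single ZT rest on 3 mice against 3, and Ppcs, Ppcdc and Pank4, with as few as 119 counts in a library, carry the most counting error.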
